A study of Mus musculus with 6 samples.

Results

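The synaptotagmin genes Syt1, Syt2, Syt3, Syt4, Syt5, Syt6, Syt7, Syt9, Syt10 and Syt11 were examined in dorsal root ganglia of newborn mice. The family was taken up because Syt10 had a large fall in mutant ganglia, and its members were then chosen by name. Of the 10 genes, 9 had a probe whose transcript matched, among 17178 named genes on the array, and they carried 19 probes in all. Syt5 matched no probe and was not analysed here. Testing needed a signal well above background in all 3 animals of one genotype or the other, and 17 probes of 8 genes met this. The probe of Syt6 and the dimmer probe of Syt10 were too dim.

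The tested animals were 3 dt27J mice, mutant for Dst, which encodes the cytoskeletal linker dystonin, and the comparison animals were 3 wild-type (WT) littermates. All were on the C57BL/6 background, were killed at postnatal day 4, before the phenotype, and came from 2 litters. Whole ganglia were used, and the RNA of each animal was hybridised to 1 single-colour Agilent array. The arrays fall on 2 dates in the labels, each with its own slide: dt27J 1, dt27J 2, WT 1 and WT 2 belong to the first, and dt27J 3 and WT 3 to the second. The sources used here do not tie animals to litters.

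Synaptotagmins are membrane proteins of secretory vesicles and of the plasma membrane that carry tandem C2 domains. In many members these domains bind calcium, and on calcium entry they engage membrane lipids and SNARE proteins so that vesicles fuse. Other members, among them Syt4 and Syt11, lack key calcium ligands. Sensory neurons of the ganglia release glutamate and neuropeptides at their central and peripheral endings and, in part, from their cell bodies. The names Syt5 and Syt9 have been exchanged in part of the literature, and the names here are those of RefSeq.

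Syt10 is the member with the largest genotype difference, and it was first described in the rat as a transcript induced in the brain by seizures. The upstream sequence of Syt10 is therefore shown beside that of Syt11, whose brightest probe had one of the smaller differences, -0.44. Each is the 250 bases before the start site, on the gene's strand, from RefSeq (GRCm38.p6), at chr15:89841861-89842110 (minus strand) for Syt10 and chr3:88772600-88772849 (minus strand) for Syt11. Capitals mark matches, on either strand, to the half-site TGACG of the cyclic AMP response element, an element of many activity-regulated genes, and to the GC box GGGCGG.
Syt10: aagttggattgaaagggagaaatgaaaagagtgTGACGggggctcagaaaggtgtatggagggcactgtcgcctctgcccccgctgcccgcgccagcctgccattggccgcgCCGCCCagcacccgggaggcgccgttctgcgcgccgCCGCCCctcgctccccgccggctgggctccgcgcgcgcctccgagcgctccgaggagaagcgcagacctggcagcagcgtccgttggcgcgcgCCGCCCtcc
Syt11: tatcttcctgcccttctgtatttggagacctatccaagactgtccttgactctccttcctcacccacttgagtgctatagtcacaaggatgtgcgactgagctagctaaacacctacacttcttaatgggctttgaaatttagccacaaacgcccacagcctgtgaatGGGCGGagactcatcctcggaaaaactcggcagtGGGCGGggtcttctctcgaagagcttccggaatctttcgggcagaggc
The Syt10 window holds 1 half-site and 3 GC boxes, at a GC content of 72%, and the Syt11 window holds 0 half-sites and 2 GC boxes, at 51.2%. Of 32851 promoter windows of the same length, 17.8% hold the half-site, 32.7% the GC box and 1.55% the full element TGACGTCA, which includes the half-site on both strands. The median GC content of these windows is 52.4%. The full element is in neither window, nor are the TATA box TATAAA and the E-box CACGTG. The RefSeq table held 11 start sites of 7 of the 10 genes. The first of 2 start sites of Syt2, at chr1:134646362-134646611, also holds 1 half-site, and the others hold 0. That Syt2 window, at a GC content of 76%, and the Syt9 window, at 80.4%, hold 3 GC boxes each, as does that of Syt10. These matches describe the letters of the windows only.

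Values are log2 signal relative to the 75th percentile of the same array, so that 0 is the signal at that percentile and each step of 1 is a doubling. Levels of different probes are not comparable, because probes differ in brightness at equal RNA. Genotype differences are dt27J minus WT with the standard error (SE) of a limma fit over all probes with date as a block, n = 3 arrays per genotype. Because the large fall of Syt10 in this contrast chose the family, the genotype differences of the members are given as a description. No p value is printed for them, and counts of members past a threshold are set beside the share of all probes and support nothing.

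The Dst probes, which check the labels, read -1.63, -1.77 and -0.96 in dt27J and 1.15, 1.44 and 1.1 in WT on the brightest of 3, a difference of -2.68 (SE 0.26). Of 26248 probes tested, 838 passed an adjusted p of 0.05, 344 higher and 494 lower in dt27J. An array had 63.1% to 71.5% of its probes well above background. Markers of neighbouring tissues differed between arrays. Summed over the 9 tested of 12 spinal cord markers, the linear signal in units of the 75th percentile was 0.807 to 0.992 in dt27J and 27.6, 21.4 and 1.69 in WT 1, WT 2 and WT 3. Over 7 tested sympathetic neuron markers it was 16.9, 25.9 and 0.949 in dt27J 1, 2 and 3, and 0.781, 0.874 and 12.6 in WT 1, 2 and 3. Over 12 skeletal muscle markers it was 101 to 195 in dt27J and 30.1, 29.9 and 117 in WT. The cord markers Slc6a5, Gad2 and Mnx1 were too dim to test. Well above background on all 6 arrays were 5 of the 9 tested cord markers and 5 of the 7 sympathetic markers. The lower sums of these lists therefore include values that were not well above background. All 14 neuronal markers were well above background on all 6 arrays, and their sum was 650, 824 and 751 in dt27J and 961, 894 and 1030 in WT.

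Taken as a family, synaptotagmin probes were mostly lower in dt27J ganglia. Of the 17 tested probes, 16 had a negative difference, against 53.6% of all tested probes. On 10 of the 17 the highest dt27J value lay under the lowest WT value, as on 16.0% of all tested probes, and on 0 of them the lowest dt27J value lay over the highest WT value (12.8% of all). The median over the 17 probes was -0.618, beside -0.050 over all tested probes. By the brightest probe of each gene, all 8 tested genes had a negative difference (52.4% of all symbols), with a median of -0.627. The Syt2 probe and the Syt7 probe A_52_P218224 were tested only because their WT arrays were above background, which favours a negative difference. Among the 15 probes well above background on all 6 arrays, 14 had a negative difference, and the share of all such probes was not counted. Since the family was chosen from this contrast, nothing further is read from these shares.

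Past the adjusted p of 0.05 were 3 of the 17 probes, 1 of Syt10 and 2 of Syt7, all lower, where 3.19% of all tested probes passed, 1.88% as lower and 1.31% as higher. One of these Syt7 probes (A_52_P218224) was tested only because its WT arrays were above background. Among the 15 probes well above background on all 6 arrays, 2 passed (3.32% of all such probes). The count rests on single arrays. It was 0 without dt27J 1, without WT 1 or without WT 2, where 0%, 0.00381% and 0% of all tested probes passed. At an unadjusted p under 0.05 (limma) were 5, 5 and 7 of the 17 probes, beside 4475, 4179 and 4990 of all 26248 tested probes. The count was 2 without dt27J 2 (0.640% of all). Without dt27J 3 or WT 3, which leaves the genotype difference to the first date, it was 8, where 25.9% of all tested probes passed. Those 8 were probes of Syt2, Syt3, Syt9 and Syt10 and all 4 probes of Syt7. No member passed when the date was left out of the fit (0.0533% of all) or replaced by the replicate number as a block (0.00762%). In these fits 7 and 6 of the 17 probes had an unadjusted p under 0.05 (limma), beside 6019 and 5711 of all tested probes. The count was 3 after quantile normalization (3.55% of all), median scaling (3.20%) or with the authors' values (4.48%). After normexp background correction it was 1, Syt10 (1.36%), and 2 in a form of it, chosen after seeing the data, that replaced high local backgrounds (5.46%).

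**Figure D1:**
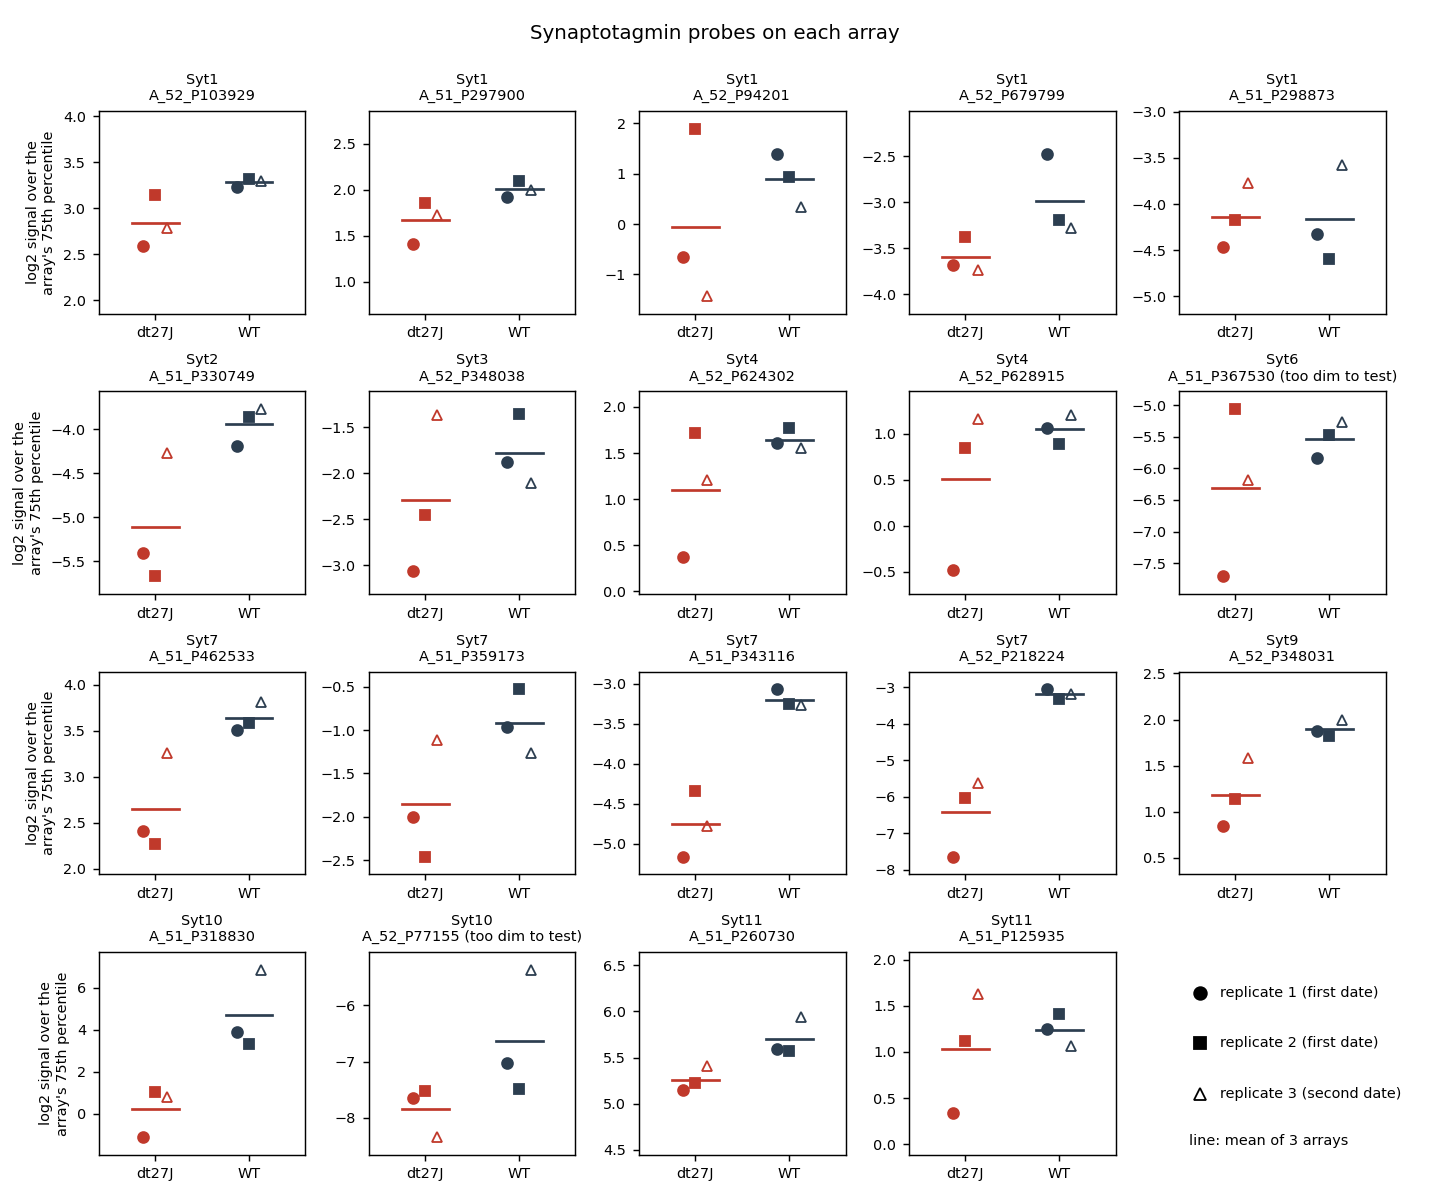
Log2 signal over the array's 75th percentile (vertical axes, each panel with its own range) of the 19 synaptotagmin probes in dt27J and WT ganglia, 1 point per array, the line being the mean of 3. The brighter Syt10 probe and the 2 dimmest probes of Syt7 show wide gaps between the genotypes, while the dt27J points of Syt3 and Syt4 reach into the WT range.

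Syt1 is the calcium sensor of fast synchronous release in forebrain neurons. Its brightest probe read 2.59, 3.14 and 2.79 in dt27J 1, 2 and 3, and 3.23, 3.32 and 3.30 in WT 1, 2 and 3. All dt27J arrays lay below all WT arrays, with a difference of -0.45 (SE 0.22), or 73.4% of the WT signal. A second Syt1 probe (A_51_P297900) read 1.41, 1.86 and 1.73 in dt27J and 1.92, 2.10 and 2.00 in WT, again without overlap and with a difference of -0.34 (SE 0.21), or -0.20 without dt27J 1.

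The other Syt1 probes did not give the same picture. A_52_P94201 read -0.65, 1.90 and -1.43 in dt27J and 1.40, 0.93 and 0.35 in WT. Its highest and its lowest array were both dt27J, and the difference was -0.95 (SE 0.65), or -1.80 without dt27J 2, -0.34 without dt27J 1 and -0.54 without dt27J 3 or WT 3. A_52_P679799 stood at -0.62 (SE 0.25), without overlap between the genotypes, but at -0.39 without WT 1, -0.27 with the authors' values and -0.19 after normexp. The dimmest, A_51_P298873, stood at 0.03 (SE 0.21), the only positive difference among the 17 tested probes, with overlapping groups. It was -0.09 without dt27J 2 and -0.08 without WT 2, and 0.08 to 0.14 without any one of the others. No Syt1 probe passed the adjusted p of 0.05.

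Syt2, the sister of Syt1 that serves fast release in the hindbrain and spinal cord and at the neuromuscular junction, read -5.40, -5.67 and -4.27 in dt27J and -4.19, -3.86 and -3.77 in WT. The groups did not overlap, and the difference was -1.17 (SE 0.27). The probe stood well above background on WT 1, 2 and 3 and, of the dt27J arrays, only on dt27J 3. Syt2 is dim here, and the size of its difference depended on the background handling: it was -0.39 with the authors' values and -0.21 after normexp background correction.

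Syt9, found on secretory vesicles of neurons and endocrine cells, read 0.84, 1.14 and 1.58 in dt27J and 1.88, 1.82 and 2.00 in WT. All dt27J arrays were below all WT arrays. The difference was -0.71 (SE 0.21), or 61% of the WT signal, and stood at -0.86 within the first date and -0.42 within the second.

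Syt7 has a high calcium affinity and is known for asynchronous release, synaptic facilitation and the exocytosis of dense-core vesicles and lysosomes. All 4 of its probes had a negative difference, of different sizes. The brightest (A_51_P462533) read 2.41, 2.27 and 3.26 in dt27J and 3.51, 3.58 and 3.81 in WT, without overlap. Its difference was -0.99 (SE 0.22), or 50.4% of the WT signal.

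The next Syt7 probe, A_51_P359173, read -2.0, -2.46 and -1.11 in dt27J and -0.97, -0.53 and -1.26 in WT. Here dt27J 3 lay above WT 3, and the difference was -0.94 (SE 0.37), or -1.48 without dt27J 3 or WT 3. A_51_P343116, the only one of the 4 on the transcript NM_018801, read -5.16, -4.34 and -4.77 in dt27J and -3.07, -3.26 and -3.27 in WT, a difference of -1.56 (SE 0.26).

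The dimmest Syt7 probe, A_52_P218224, gave the widest gap of the gene. It read -7.65, -6.03 and -5.62 in dt27J and -3.06, -3.34 and -3.20 in WT, a difference of -3.23 (SE 0.46). Of the dt27J arrays only dt27J 3 was well above background. The difference was -1.33 with the authors' values and -0.54 after normexp, and for A_51_P343116 it was -0.78 and -0.39. Syt7 is spliced into several forms, and the probes may not all detect the same ones.

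Syt3, Syt6 and Syt10 belong to a subgroup whose members form disulfide-linked dimers through cysteines near the N terminus. Syt10, known in the mouse olfactory bulb for the release of insulin-like growth factor from neurons, read -1.11, 1.03 and 0.79 in dt27J and 3.90, 3.34 and 6.87 in WT on its brighter probe, A_51_P318830. All 6 arrays were well above background, and the lowest WT array stood well above the highest dt27J array. The means were 0.24 ± 1.17 in dt27J and 4.70 ± 1.90 in WT (SD, n = 3 each).

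The genotype difference of Syt10 was -4.46 (SE 0.69), a 22.1-fold lower signal in dt27J, and its size turned on single arrays. This was the fourth largest fall of all 26248 tested probes by size. WT 3 stood 3.26 above the mean of WT 1 and WT 2. The difference was -3.65 within the first date, a 12.6-fold lower signal, which is also its value without WT 3 or without dt27J 3. Without dt27J 2 it was -5.31, a 39.6-fold lower signal. Between dt27J 3 and WT 3 alone it was -6.09.

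The second Syt10 probe, A_52_P77155, read -7.65, -7.52 and -8.34 in dt27J and -7.03, -7.49 and -5.37 in WT. It was well above background on WT 3 alone, the array on which the brighter probe was also highest, and on no dt27J array. It entered no test. The large Syt10 difference therefore rests on 1 probe.

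Syt3, a synaptotagmin of the plasma membrane, read -3.06, -2.45 and -1.37 in dt27J and -1.88, -1.36 and -2.11 in WT. The groups overlapped, since dt27J 3 lay above WT 3 and WT 1, and the difference was -0.51 (SE 0.42). It was -0.16 without dt27J 1, -0.19 without WT 2 and -1.14 without dt27J 3 or WT 3. Syt6, known from the sperm acrosome reaction, read -7.71, -5.06 and -6.18 in dt27J and -5.84, -5.48 and -5.27 in WT. It was well above background on dt27J 2, dt27J 3 and WT 3 only, and no difference is given.

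Syt4 and Syt11 are the members that lack key calcium ligands. Syt4 is known for modulating dense-core vesicle release and Syt11 for regulating endocytosis. The brighter Syt4 probe (A_52_P624302) read 0.37, 1.72 and 1.21 in dt27J and 1.61, 1.77 and 1.55 in WT. The other (A_52_P628915) read -0.48, 0.85 and 1.16 in dt27J and 1.06, 0.89 and 1.20 in WT. Both had a difference of -0.54 (SE 0.36 and 0.37) and dt27J 1 as the lowest array, with the other dt27J arrays in or near the WT range. Without dt27J 1 the differences were -0.13 and -0.09, and without dt27J 2 they were -0.90 and -0.85.

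The brighter Syt11 probe (A_51_P260730) read 5.15, 5.22 and 5.41 in dt27J and 5.59, 5.57 and 5.94 in WT, without overlap, a difference of -0.44 (SE 0.18). The other Syt11 probe (A_51_P125935) read 0.34, 1.12 and 1.63 in dt27J and 1.25, 1.41 and 1.07 in WT. Its groups overlapped, and the difference was -0.21 (SE 0.33). It turned to 0.12 without dt27J 1, and was -0.05 without WT 2, -0.33 without dt27J 2 and -0.60 without dt27J 3 or WT 3.

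**Figure D2:**
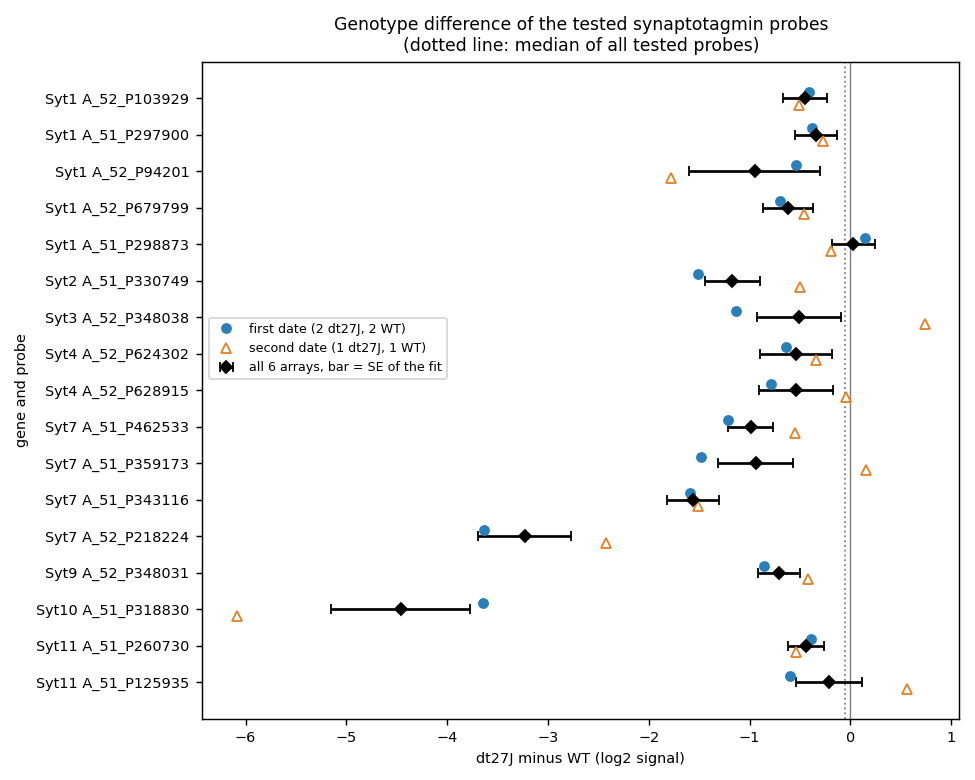
Genotype difference, dt27J minus WT on the log2 scale (horizontal axis), of the 17 tested synaptotagmin probes (vertical axis), over all 6 arrays with the SE of the fit and within each date. Syt10 lies farthest from 0, at -4.46, and the second-date values of Syt3, of 1 Syt7 probe and of 1 Syt11 probe lie above 0 while their first-date values lie below it.

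The genotype differences within each date come from the contrast that chose the family and are given as a description. Over the 17 probes the median difference was -0.792 within the first date and -0.460 within the second, beside -0.008 and -0.132 over all tested probes. The difference was negative within both dates on 13 of 17 probes, against 32.3% of all tested probes. Whether the genotype difference itself changed with the date was tested as an interaction. No synaptotagmin probe passed (0 of 17 at an adjusted p of 0.05 and 3 at an unadjusted p under 0.05, limma), where 0.831% of all tested probes passed and 27.5% had an unadjusted p under 0.05. The smallest adjusted p values were 0.0976 for Syt3 (interaction 1.87, SE 0.51) and 0.0983 for the Syt7 probe A_51_P359173 (1.63, SE 0.44), and Syt10 stood at -2.43 (SE 1.17, adjusted p = 0.237). With 1 array per genotype on the second date, the interaction has little precision.

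Between the dates themselves, the second minus the first, the synaptotagmins did not pass either. Of the 17 probes, 0 passed an adjusted p of 0.05 and 4 had an unadjusted p under 0.05 (limma), where 0.107% and 15.3% of all tested probes did. The 4 were probes of Syt1, Syt2, Syt7 and Syt10. Syt10 had the largest date difference of these, carried by WT 3, with an adjusted p of 0.286.

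Markers of neurons were set beside the synaptotagmins. The 14 neuronal markers had a median difference of -0.67, with 13 negative (52.4% of all symbols), beside the -0.63 of the 8 synaptotagmin genes by their brightest probes. Their mean log2 level was 3.39, 3.65 and 4.08 in dt27J 1, 2 and 3, and 4.37, 4.35 and 4.50 in WT 1, 2 and 3. In these bulk samples, fewer neurons in the ganglia, less RNA per neuron and a larger share of other tissue cannot be told apart. The 12 skeletal muscle markers had a median difference of 1.75, with 2.38 within the first date and 0.22 within the second. The 8 tested markers of satellite glia and Schwann cells had a median of -0.10, with 6 negative. They ranged from -0.96 (SE 0.25) for Fabp7 to 1.85 (SE 0.36) for Cdh19. Cdh19 alone passed the adjusted p of 0.05, as higher (1.35% of all symbols). It was tested only because its dt27J arrays were above background, and of the WT arrays 1 was.

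On WT 3, where Syt10 was highest, the sympathetic marker sum was 12.6, against 0.781 and 0.874 on WT 1 and WT 2. It was higher still on dt27J 1 and dt27J 2, at 16.9 and 25.9, where Syt10 read -1.11 and 1.03. The spinal cord sum was higher on WT 1 and WT 2 than on the other 4 arrays. Within the second date the spinal cord sums were 0.913 in dt27J 3 and 1.69 in WT 3, and the sympathetic sums 0.949 and 12.6. There the brighter Syt10 probe differed by -6.09, and the median over the 17 tested synaptotagmin probes was -0.46. The brightest Syt7 probe differed by -0.55 and the brightest Syt1 probe by -0.51, while Syt3 stood at 0.74. The Syt11 probe A_51_P125935 stood at 0.56 and the Syt7 probe A_51_P359173 at 0.15. The part of these tissues in the differences was not tested.

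**Figure D3:**
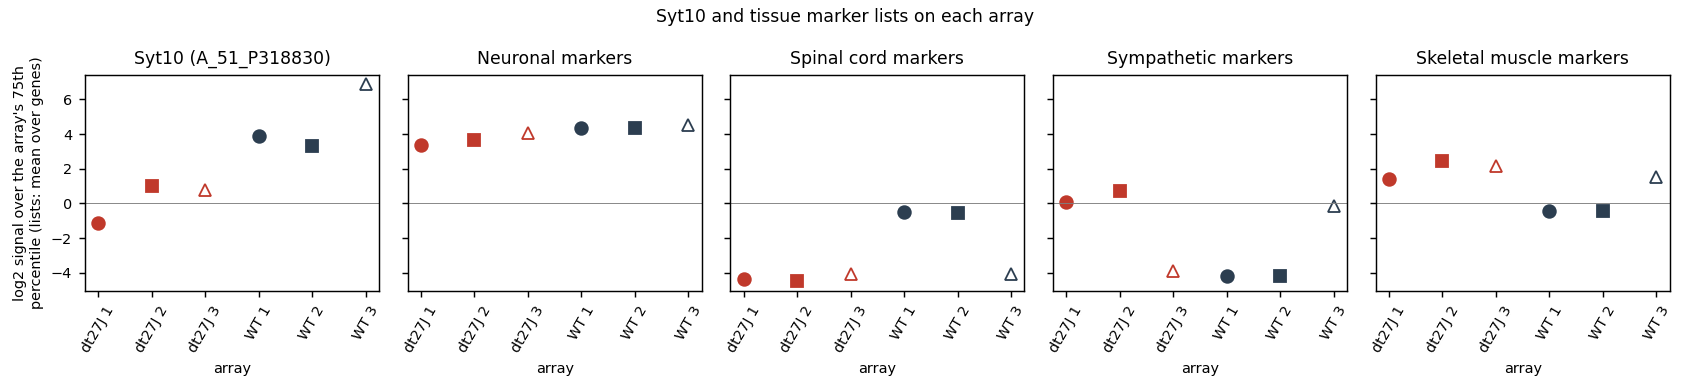
Log2 signal over the array's 75th percentile of the brighter Syt10 probe, and the mean over the tested genes of each marker list, on each of the 6 arrays (horizontal axes). Syt10 is highest on WT 3 at 6.87 and lowest on dt27J 1 at -1.11, while the spinal cord mean is high on WT 1 and WT 2 only and the sympathetic mean on dt27J 1, dt27J 2 and WT 3.

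The genes whose profiles over the 6 arrays were most like that of Syt10 were found among 18252 named probes that passed the background flag on each array. The highest Pearson correlations were 0.9997 for Olfm1, 0.9989 for Atg4d, 0.9982 for Syngr4, 0.9977 for Sestd1 and 0.9965 for Arid5b. These describe 6 points that include 1 far from the rest, WT 3. The profiles had different amplitudes. Arid5b, an AT-rich DNA-binding protein, read -1.03, 0.02 and 0.12 in dt27J and 2.01, 1.88 and 4.29 in WT. Olfm1, a secreted glycoprotein of neurons, read 4.58, 5.02 and 4.98 in dt27J and 5.70, 5.58 and 6.36 in WT. Among the synaptotagmins the correlation with Syt10 was 0.97 for the brighter Syt11 probe and between 0.34 and 0.90 for the others.

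Of the other synaptotagmins, by the brightest probe of each gene, Syt13 fell and the rest did not pass (1.52% of all symbols passed as lower). Syt8, Syt14 and Syt15 were too dim to test, which left 4 of 7. Syt13, which does not bind calcium, read 1.92, 1.76 and 1.67 in dt27J and 3.24, 2.73 and 2.78 in WT, a difference of -1.13 (SE 0.22, adjusted p = 0.0488, limma). A second Syt13 probe stood at -1.50 (SE 0.33, adjusted p = 0.0577, limma). The Syt13 call did not hold without dt27J 1 or without WT 2, where 0 of all tested probes passed. Syt17 stood at -0.47 (SE 0.23) and Syt12 at -0.30 (SE 0.19). Syt16 stood at 0.10 (SE 0.28) on its brightest probe and at 0.22 and -0.29 on the others. Of the 4 genes, 3 had a negative difference (52.4% of all symbols). Their median was -0.38, with -0.30 and -0.61 within the dates.

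The machinery on which synaptotagmins act was counted by the brightest probe of each gene, where 52.4% of all symbols had a negative difference, 1.52% passed as lower and 1.35% as higher. Of 17 tested SNARE proteins and their regulators, 12 had a negative difference, with a median of -0.56, and 1 fell. That was Cplx1, the complexin that clamps SNARE complexes until synaptotagmin acts. It read 3.42, 3.47 and 4.03 in dt27J and 4.70, 4.93 and 4.88 in WT (difference -1.20, SE 0.21, adjusted p = 0.0472, limma). The Cplx1 call did not hold without dt27J 1 or without WT 2, where 0 of all 26248 tested probes passed. The plasma membrane SNARE Stx1a stood at -1.22 (SE 0.26) and the vesicle SNARE Vamp1 at -1.08 (SE 0.27), and neither passed. On 7 of the 17 genes all dt27J arrays lay below all WT arrays, beside 16.0% of all tested probes. On 2 genes all dt27J arrays lay above all WT arrays, beside 12.8% of all tested probes. These 2, named after their values were seen, did not pass: Vamp3 at 0.75 (SE 0.23) and Snap23 at 0.72 (SE 0.19). The other Snap23 probes stood at 1.52 and 1.54. The list's median was -0.46 within the first date and -0.42 within the second.

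Of 10 tested vesicle membrane genes, 9 had a negative difference (52.4% of all symbols), with a median of -0.61, and 1 fell (1.52% of all symbols). The median was -0.93 within the first date and -0.10 within the second. Syn1, the synapsin that ties vesicles to the cytoskeleton, read 2.25, 2.97 and 2.54 in dt27J and 4.21, 4.06 and 5.55 in WT (difference -2.02, SE 0.36, adjusted p = 0.0472, limma). As with Syt10, WT 3 was the highest array. The Syn1 call did not hold without dt27J 1 or without WT 2, where 0 of all tested probes passed. A second Syn1 probe stood at -1.16. Synaptophysin, Syp, stood at -1.01 (SE 0.32), with -1.47 in the first date and -0.09 in the second. Syngr1 stood at 1.05 (SE 0.37) on its brightest probe, with 1.63 and -0.12 in the dates, and at 0.76 and -1.29 on the others.

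Other C2-domain proteins share the calcium- and lipid-binding fold of the synaptotagmins. Of their 9 tested genes, 6 had a negative difference (52.4% of all symbols), with a median of -0.35 (-0.62 and -0.58 within the dates). Of these 9 genes 0 passed, and 4 had an unadjusted p under 0.05 (limma), beside 7270 of all 26248 tested probes. At an adjusted p above 0.05 stood Rph3a, a Rab3 effector (-1.12, SE 0.29), Doc2a, a sensor for spontaneous and asynchronous release (-1.02, SE 0.22), and Esyt1, a tether between endoplasmic reticulum and plasma membrane (-1.01, SE 0.24).

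**Figure D4:**
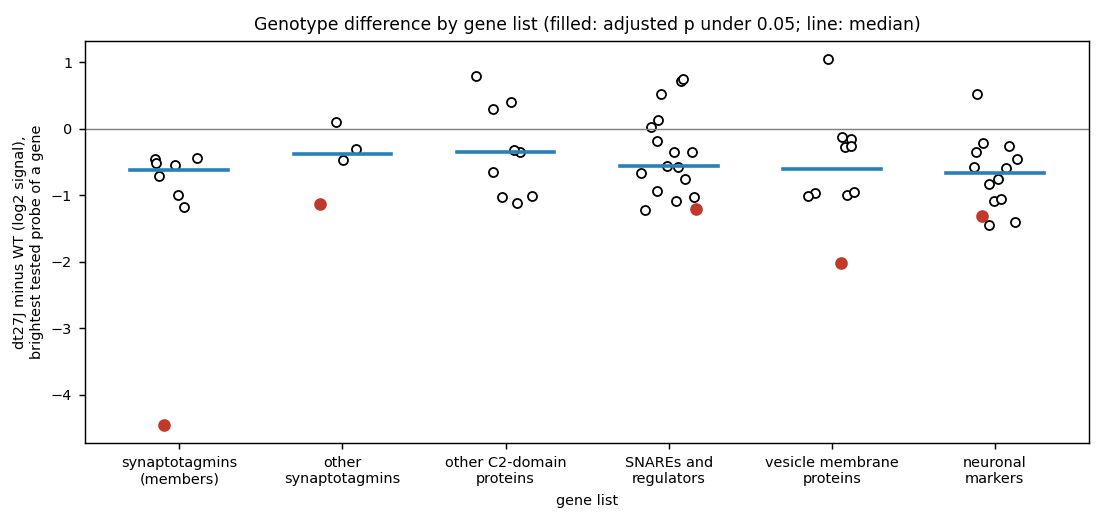
Genotype difference, dt27J minus WT on the log2 scale (vertical axis), of the brightest tested probe of each gene in 6 gene lists (horizontal axis), filled where the adjusted p was under 0.05, with the median of each list. The medians lie between -0.67 and -0.35, and Syt10 at -4.46 lies apart from all other genes shown.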

How the data were processed

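Total RNA (300 ng) of each of the 6 ganglion samples was labelled with Cy3 and hybridised, per the labels' protocols. The authors extracted signals with Agilent Feature Extraction (10.5.1.1, per the submitters' processing notes), with background subtraction and spatial detrending per the file headers. Its deposited processed signals are linear intensities without scaling between arrays, given beside the median pixel intensities of spots and local background. In the authors' deposited table the log2 values are centred on the median of each probe, and the sources used here name no other normalization.

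Processed signals were put on the log2 scale, and the 75th percentile of each array was subtracted (a signal of 369.5 to 580). Control and outlier spots were left out and repeated spots averaged, and 0 probes were saturated. Of 41174 probes, 26248 were tested, and accessions were matched to RefSeq symbols (GRCm38.p6; 73.8% of tested probes). limma 3.58.1 (lmFit, eBayes; R 4.3.3) was fitted with genotype and date, 3 residual degrees of freedom, and Benjamini-Hochberg adjustment over all tested probes. The fit was tested on simulated data. The number of arrays limits the precision, and p values measure the spread between these animals.

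All probes of the 10 synaptotagmins are named. Of the other lists, the 3 genes with the largest difference by brightest probe may be named, and the 5 symbols most correlated with Syt10. Vamp3, Snap23, Syt16, Cdh19 and Fabp7 were named after their values were seen. The members and lists were chosen with earlier results of these data known. Alternatives were other blocks, scalings, background corrections and filters, the authors' values, and leaving out each array.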

Additional observations from a re-analysis of the deposited data

Results flagged for a closer look

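On 3 synaptotagmin probes both dt27J arrays of the first date lay below both WT arrays, while in the second date dt27J 3 lay above WT 3. This direction differs between the dates. The Syt3 probe differed by -1.14 in the first date and 0.74 in the second, a change of 1.87 between the dates. The Syt7 probe A_51_P359173 differed by -1.48 and 0.15, a change of 1.63, and the Syt11 probe A_51_P125935 by -0.60 and 0.56, a change of 1.16. As an interaction of genotype and date these changes had adjusted p values of 0.0976, 0.0983 and 0.207 (limma), so none passed 0.05, and the second date holds 1 array per genotype. The brighter Syt11 probe and the other Syt7 probes did not turn, with second-date differences of -0.54 for Syt11 and of -2.42, -1.51 and -0.55 for Syt7.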

How the results depend on the processing

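The Syt10 difference of -4.46 lay between -5.31 and -3.65 when 1 array was left out, and moved by less than the spread between replicates under every alternative run; 4 alternatives with all arrays gave -4.45 to -3.99 (quantile, median scaling, normexp and the authors' values). The 3 synaptotagmin probes past the threshold became 0 without the date block, 0 with the replicate block, 0 without a filter on dim probes and 1 after normexp (7, 6, 7 and 6 at an unadjusted p under 0.05, limma), 8 on the first date alone, 2 of 15 with probes well above background on all 6 arrays, and 0 to 8 with 1 array left out. Over all tested probes, 6019 had an unadjusted p under 0.05 (limma) without the date block and 5711 with the replicate block. Without the filter there were 8485, and after normexp 5605. Since Syt10's fall in this contrast chose the family, the synaptotagmin counts describe the settings only. Over all probes the 838 became 14 without the date block, 2 with the replicate block, 358 after normexp, 0 without the filter (8485 unadjusted), 6805 on the first date alone and 0 to 6805 with 1 array left out (4990 and 4475 unadjusted for the counts of 0, without WT 2 and without dt27J 1). Normexp with high local backgrounds replaced, chosen after seeing the data, gave 1433 probes and 2 synaptotagmin probes. The split of 344 higher and 494 lower was 503 and 430 after quantile normalization, 457 and 382 after median scaling, 261 and 97 after normexp, and 614 and 561 in the authors' table. The 28 probes that differed between dates became 21516 after normexp, 4509 without the filter, 48 with probes well above background on all 6 arrays and 0 to 4272 with 1 array left out (2131, 2730 and 2613 unadjusted for the counts of 0, without WT 1, dt27J 1 and dt27J 2). The 218 interaction calls became 1142 after normexp, 1623 with the authors' values, 405 without the filter and 995 with probes well above background on all 6 arrays. The cause of these shifts was not tested. Whether the replicate numbers pair the samples was not settled. Deviations from the group mean of same-numbered samples correlated at 0.22, -0.15 and 0.06, and those of other pairs at -0.29 to 0.23. The deviations of 3 samples from their own mean are not independent, so these correlations cannot decide it. Of the synaptotagmin probes, 4 moved by more than the replicate spread, under normexp, its variant and the authors' values (probes of Syt1 and Syt2 and 2 of Syt7). The mean level of these 4 probes ran from -4.82 to -3.29. The Syt1 probe A_51_P298873, at -4.15, did not move by that much. Its difference was 0.03 to begin with, so it had little room to shrink and decides nothing here. The part of low signal in these moves was not tested.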
